A study of Mus musculus with 24 samples.

Results

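The comparison described here sets 2 liver libraries of db/db mice that drank sucrose against 2 liver libraries of db/db mice that drank water, 4 of the 24 libraries of the series. The members were taken from the sample titles by tissue, drink and genotype, with no use of measured values. The series asked how sucrose and brazzein, a sweet-tasting plant protein, affect brain and liver in mice without a working leptin receptor, and it holds 2 tissues, 2 genotypes and 3 drinks with 2 libraries of each combination. All mice were male, of a strain given as C57/BL6, with a treatment entry of 16 weeks. The db/db sucrose livers came from mice homozygous for the db allele of the leptin receptor gene that were given sucrose, and the db/db water livers from mice of that genotype given water. Set beside them are 2 db/db brazzein livers, 2 db/+ sucrose livers and 2 db/+ water livers, where db/+ mice have 1 db allele and 1 functional allele. The db allele is a germline defect, so every cell of a db/db mouse lacks the signalling form of the receptor. Mice of this genotype are known to become obese and often diabetic, so the db/db water livers are not a healthy baseline. The weight and blood glucose of these animals were not among the values used here. The labels give no sugar concentration, intake, age or litter, and a separate genotype entry contradicts the title for 12 of the 24 samples, where the title was followed.

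The liver responds to dietary sugar along several routes. Sucrose is cleaved to glucose and fructose, fructose enters through ketohexokinase (Khk), and sugar phosphates activate the transcription factor ChREBP (gene Mlxipl), which together with SREBP-1c (Srebf1) drives glycolytic and fat-synthesis genes. PPARα (Ppara) acts in the opposite branch, turning on fatty acid oxidation, ketone synthesis and the Cyp4a enzymes. Mice of this genotype overeat and carry high insulin, and their livers store much fat on ordinary food and water.

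Each liver library held between 60384569 and 79385804 estimated counts, and between 22169 and 24115 genes were above 0. Values below are counts scaled to a common library size (CPM), with the size corrected by TMM factors, and fold changes are log2 of sucrose over water with their standard error (SE) from an edgeR fit over all 12 livers. Spearman's correlation across genes between replicates was 0.962 for the db/db sucrose livers and 0.954 for the db/db water livers, and between 0.945 and 0.957 for the pairs across drinks. The hepatocyte markers Alb, Apoa1, Apoa2, Ttr, Cps1 and Hnf4a were present in all 4 livers, summing, without TMM factors, to 89500 and 92200 CPM with sucrose, against 74400 and 96400 CPM with water. Adipocyte markers summed to at most 0.19 CPM in these 4 livers, with Adipoq and Lep under the filter. The labels do not say that replicates are separate animals. The p-values therefore rest on the spread between replicate libraries, taken over all 12 livers in the main fit. That spread may not be the one between animals.

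Of 19352 genes tested, 1 passed the threshold of adjusted p under 0.05, which is 0.00517%. It is Gm8893, annotated as a pseudogene, a gene copy not known to make a protein, that lies among the Serpina1 genes for alpha-1-antitrypsin, an abundant protease inhibitor the liver secretes. Gm8893 held 296 and 220 CPM in the db/db sucrose livers, against 5.83 and 7.90 CPM in the db/db water livers. The log2 fold change was 5.23 (SE 0.27), with an adjusted p of 0.000832 by edgeR's quasi-likelihood test. The underlying estimated counts were 23235 and 17700 with sucrose, against 417 and 629 with water. The water livers of db/db mice were the low ones. The db/db brazzein livers held 240 and 185 CPM, the db/+ sucrose livers 456 and 364 CPM, the db/+ brazzein livers 601 and 666 CPM, and the db/+ water livers 516 and 459 CPM. In the 10 other livers Gm8893 was thus at least 185 CPM, and no library of another group came near the values on water in db/db mice.

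Gm8893 is on chromosome 12, where RefSeq lists it between the pseudogenes Gm17043 and Gm6918, with Serpina1d on that first side and Serpina1a beyond the second. Its annotated transcript (GENCODE, build GRCm38) has 4 exons and 1242 bases. Aligned over 1239 bases, it matched the coding sequence of Serpina1a at 98.8% of positions, Serpina1c at 97.8%, Serpina1b at 96.9%, and Serpina1d and Serpina1e at 96.4% each. Only 10 of its bases differ from all 5 genes, and the longest stretch it shares without a difference is 226 bases, with Serpina1d. Reads from stretches shared with a neighbour can be placed on it or divided among copies. The share of such reads was not measured, so the level of Gm8893 is uncertain.

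The coding Serpina1 genes did not pass the threshold. Serpina1d held 1820 and 1540 CPM with sucrose, against 2380 and 2340 CPM with water, and Serpina1b 3910 and 3700 CPM with sucrose, against 5050 and 4430 CPM with water. Serpina1a held 1950 and 1600 CPM with sucrose, against 1990 and 2030 CPM with water, and Serpina1c 1760 and 1320 CPM with sucrose, against 1860 and 2020 CPM with water. For these 4 genes both sucrose livers lay below both water livers, while for Serpina1e the drinks overlapped. Gm8893 took 3.03% and 2.63% of the summed CPM of the 6 copies in the sucrose livers, against 0.0515% and 0.0728% in the water livers, and between 1.71% and 3.03% in the other 8 livers. The summed CPM was 9770 and 8390 with sucrose, against 11300 and 10800 with water. Per length, in the authors' FPKM values, Gm8893 stood at 190 and 150 with sucrose, against 3.46 and 4.55 with water, and Serpina1a at 1140 and 992 with sucrose, against 1070 and 1070 with water.

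**Figure D1:**
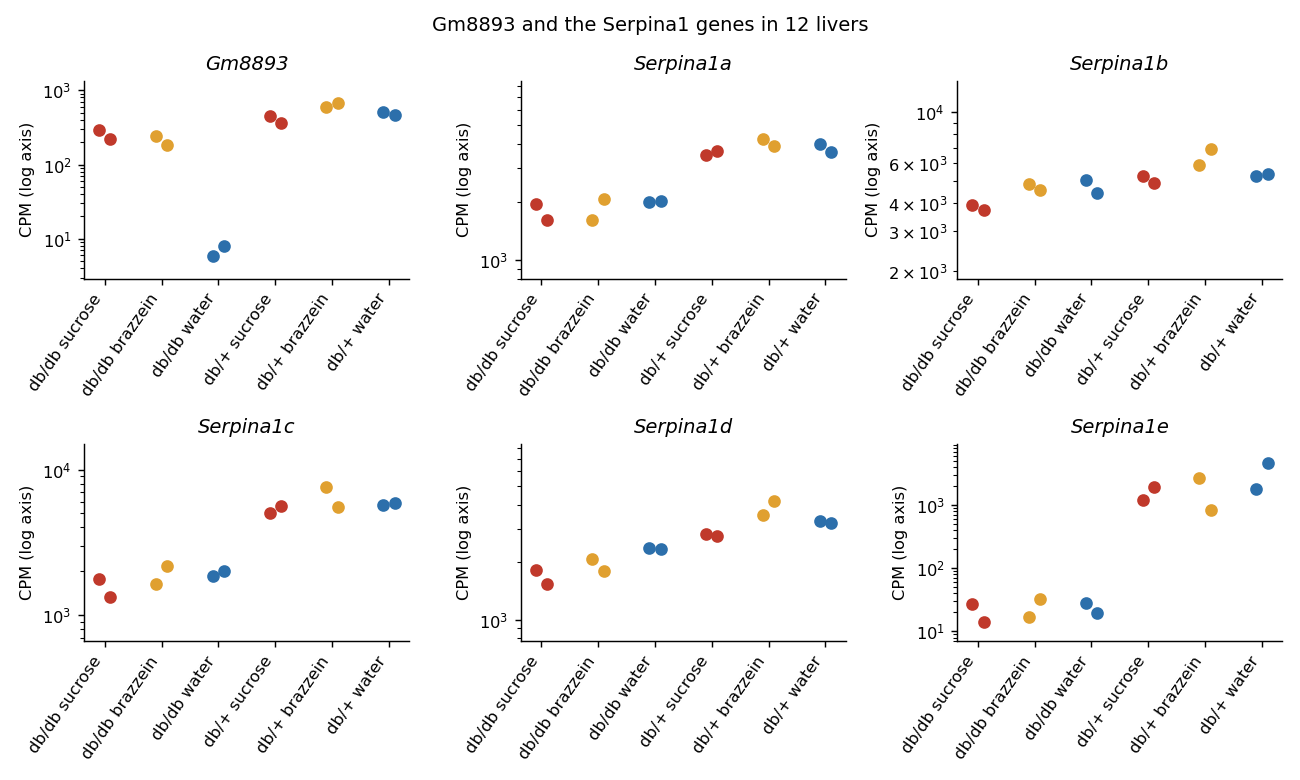
CPM (log axis) of Gm8893 and the 5 Serpina1 genes in the 12 livers, with 1 point per library and groups by genotype and drink. Gm8893 is at 5.83 and 7.90 CPM in the db/db water livers and at 185 CPM or more in the other 10, while no Serpina1 gene sets the db/db water livers apart in this way.

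The rest of the table is described by values, since no other gene was called. At an unadjusted edgeR p under 0.05 there were 827 genes, 4.27% of those tested, with 427 higher (2.21%) and 400 lower (2.07%) with sucrose. Both sucrose livers lay above both water livers for 3901 genes (20.2%) and below both for 4464 genes (23.1%). DESeq2 on the same 12 livers called 76 genes (0.393%), 48 higher and 28 lower. Dropping the first db/db sucrose liver gave 5 edgeR calls, dropping the second gave 9, and dropping the first db/db water liver gave 12. Gm8893 was called each time, but not when the fit held only the 4 db/db livers (log2 5.27, adjusted p 0.241) or the 6 (log2 5.27, adjusted p 0.114), which share the spread over fewer samples.

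Of the 20 smallest p-values, 13 belonged to genes listed near 0 (a median of 100 counts or more over livers with 1 library under 0.1 of it) or with a group mean under 1 CPM, as were 44.7% of all genes tested. Genes listed near 0 were 32 of the 827 at an unadjusted p under 0.05 and 1329 of all 19352. Some genes with a group mean under 1 CPM had a clear level in the other group or library. Huwe1, a very large ubiquitin ligase, held 20.9 and 65.5 CPM with sucrose, against 0.336 and 0.364 CPM with water, at an edgeR adjusted p of 0.0545. In the other 8 livers Huwe1 lay between 0.342 and 1.38 CPM. Ppargc1a, the coactivator of mitochondrial and gluconeogenic genes, held 16.3 and 17.1 CPM with sucrose, against 0.406 and 0.0628 CPM with water, and 0 and 0.205 CPM with brazzein. Insr, the insulin receptor, held 8.66 and 17 CPM with sucrose, against 0.224 and 1.42 CPM with water, yet 1.11 and 110.0 CPM in the 2 db/+ water livers, so its replicates can differ as widely as the drinks. Among 12508 genes with a mean of at least 1 CPM, 42 had both sucrose livers at 10 times or more of both water livers and 5 had the reverse. Replicates of the same drink were 10-fold or more apart for 181 genes with sucrose and 295 genes with water. The median of the longest coding transcript was 5827 bases for the 42, 5684 and 5619 bases for the genes with divergent replicates, and 3069 bases for all 12508.

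Cytochrome P450 genes of the Cyp2c family, which oxidise drugs, steroids and fatty acids, had low values with sucrose. Cyp2c37 held 51.6 and 35.5 CPM in the sucrose livers, against 167 and 200 CPM in the water livers, a log2 fold change of -2.08 (SE 0.33) with an edgeR adjusted p of 0.402. Cyp2c50, its close neighbour, held 152 and 101 CPM with sucrose, against 376 and 473 CPM with water (log2 -1.75, SE 0.28, edgeR adjusted p 0.402). Cyp2c29 held 252 and 216 CPM with sucrose, against 404 and 558 CPM with water (log2 -1.04, SE 0.21, edgeR adjusted p 0.827). None of these passed over all genes by edgeR, and DESeq2 called all 3, at adjusted p 6.96e-05, 0.000186 and 0.0357. The db/db brazzein livers held 114 and 167 CPM of Cyp2c37, 264 and 320 CPM of Cyp2c50, and 307 and 231 CPM of Cyp2c29. For Cyp2c29 the brazzein livers thus overlapped the sucrose livers and lay below both water livers. Cyp2c54 held 15.9 and 4.10 CPM with sucrose, against 37.8 and 31 CPM with water, and Cyp2c23 33.1 and 24.5 CPM with sucrose, against 43.3 and 56.5 CPM with water. The 13 Cyp2c genes tested are a family picked after these values were seen. Of them, 11 had both sucrose livers below both water livers, beside 23.1% of all genes. The median log2 fold change of the 13 was -1.04. Cyp2c67 was the member above 0, at 119 and 90.1 CPM with sucrose, against 95.1 and 101 CPM with water. Reads of members with close copies can be divided among them, so single members are uncertain. How alike the 13 genes are was not measured here.

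The list of xenobiotic metabolism includes Cyp2c37, Cyp2c50 and Cyp2c29, so it shares genes with the family above. Its median log2 was -0.39 over 46 genes tested, beside -0.0096 over all genes. Both sucrose livers lay below both water livers for 29 and above for 1, beside 23.1% and 20.2% of all genes. Of the 46, 8 were lower and 1 higher at an unadjusted edgeR p under 0.05, beside 2.07% and 2.21% of all genes. Ugt1a2, a glucuronidating enzyme outside that list, held 18.7 and 28.2 CPM with sucrose, against 66.8 and 86.5 CPM with water, and stood at 173 and 163 CPM with brazzein. Gstk1, a glutathione transferase of mitochondria and peroxisomes, held 114 and 107 CPM with sucrose, against 157 and 187 CPM with water. Pon1, the paraoxonase carried on HDL, held 564 and 395 CPM with sucrose, against 743 and 863 CPM with water. The member of the list above in both sucrose livers was Ahr, the receptor that senses dioxin-like compounds, with 32.6 and 28.7 CPM with sucrose, against 18.4 and 17 CPM with water (log2 0.79, SE 0.17, edgeR adjusted p 0.983, DESeq2 adjusted p 0.00828).

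**Figure D2:**
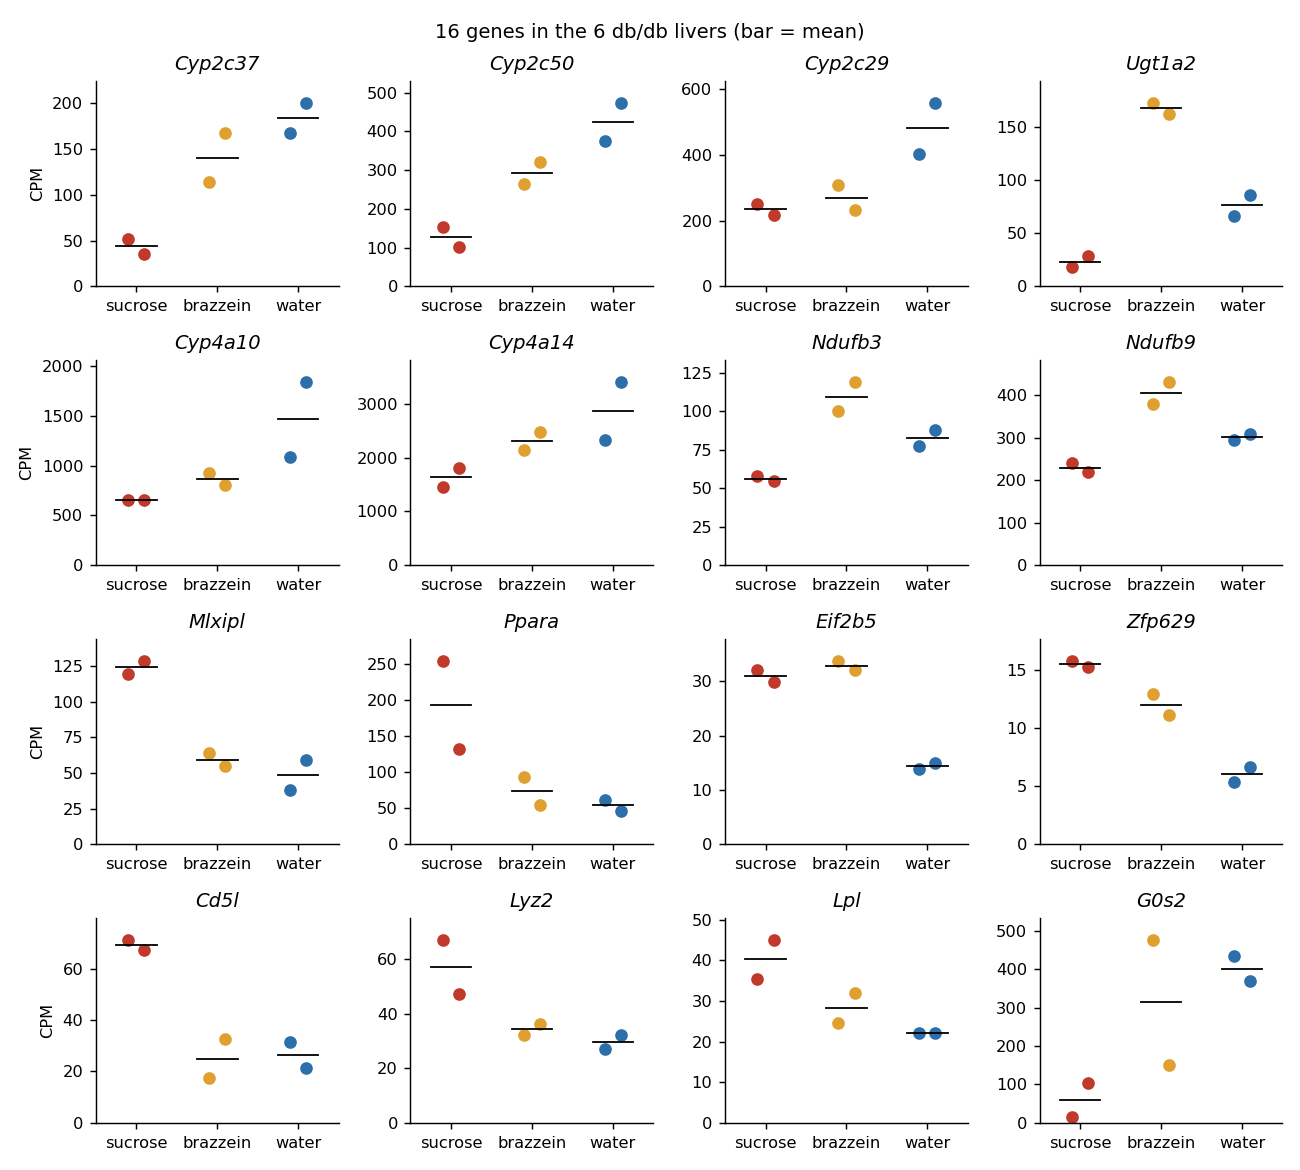
CPM of 16 genes in the 6 db/db livers, with 1 point per library, a bar at the mean of 2 libraries, and axes from 0. Cyp2c37, Cyp2c50 and Cyp2c29 are lower in both sucrose livers than in both water livers, and for Cyp2c29 the brazzein livers overlap the sucrose livers. Mlxipl and Ppara are high in both sucrose livers, and for Eif2b5 and Zfp629 the water livers stand below both sweetened drinks.

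The other genes selected by smallest p among those at 5 CPM or more, 12 in each direction, had varied roles. Zfp629, a zinc finger gene, held 15.8 and 15.3 CPM with sucrose, against 5.36 and 6.67 CPM with water (log2 1.37, SE 0.19, edgeR adjusted p 0.308). Eif2b5, a subunit of the exchange factor that restarts translation initiation, held 32.1 and 29.9 CPM with sucrose, against 13.8 and 15.0 CPM with water (log2 1.11, SE 0.18, edgeR adjusted p 0.402). For both genes brazzein gave values near those of sucrose, 12.9 and 11.1 CPM for Zfp629 and 33.8 and 32 CPM for Eif2b5, so the db/db water livers were the low group, as for Gm8893. In the 10 other livers Zfp629 lay between 11.1 and 19.0 CPM and Eif2b5 between 29.9 and 42.9 CPM. Hnrnph1, a splicing factor, held 56.0 and 44 CPM with sucrose, against 18.9 and 18.7 CPM with water. Flcn, the tumour suppressor that controls lysosomal nutrient signalling, held 26.7 and 22 CPM with sucrose, against 11.3 and 13.5 CPM with water. Tbc1d31, Uap1l1 and Abl1 were also above in both sucrose livers, at log2 1.75, 0.75 and 0.75. Dnajc13 rested on 1 library, with 27.1 and 0.648 CPM with sucrose, against 0.280 and 0.201 CPM with water. On the lower side, Rnf213, a large ubiquitin ligase, held 6.52 and 2.80 CPM with sucrose, against 27.8 and 19.0 CPM with water, and Mylk, the myosin light chain kinase, 2.23 and 3.10 CPM with sucrose, against 26.1 and 12.1 CPM with water. Fndc4, Fdx2 and Pakap were below in both sucrose livers at log2 -1.09, -1.44 and -1.42. All of these had edgeR adjusted p-values between 0.308 and 1, while DESeq2 called all of them except Hnrnph1 and Flcn. Its adjusted p was 1.02e-10 for Zfp629, 6.21e-05 for Eif2b5, 0.000165 for Rnf213, 0.000356 for Mylk and 0.000315 for Dnajc13.

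Sugar entry and sensing gave 1 member that stood out. Mlxipl, the gene of ChREBP, held 120 and 129 CPM in the sucrose livers, against 37.8 and 58.9 CPM in the water livers (log2 1.36, SE 0.25, edgeR adjusted p 0.555, DESeq2 adjusted p 0.00249). Its level in db/+ mice was 92.3 and 102 CPM with sucrose, against 112 and 121 CPM with water. With brazzein the db/db livers held 63.9 and 55.1 CPM and the db/+ livers 58.9 and 39.7 CPM. The values of genes that ChREBP is known to drive were mixed. Txnip, a ChREBP target that restrains glucose uptake, held 86.7 and 38.2 CPM with sucrose, against 33.7 and 27.2 CPM with water. Pklr, the liver pyruvate kinase, held 218 and 167 CPM with sucrose, against 180 and 131 CPM with water, overlapping. Slc2a2, the glucose transporter GLUT2, held 360 and 321 CPM with sucrose, against 286 and 255 CPM with water. Of the fructose enzymes, Khk held 471 and 503 CPM with sucrose, against 581 and 728 CPM with water, and Tkfc overlapped at a log2 of -0.09. Mlx, the partner protein of ChREBP, held 1.40 and 1.59 CPM with sucrose, against 3.18 and 7.18 CPM with water. Over the list of 19 tested genes, 6 had both sucrose livers above and 3 below, beside 20.2% above and 23.1% below over all genes. The median log2 was 0.15, and it lay between 0.01 (dropping the second db/db water liver) and 0.30 (dropping the first) when 1 library was left out. The glycolysis list of 22 genes had a median of -0.01, with Pkm, the pyruvate kinase of non-hepatocytes, at 24.5 and 26.8 CPM with sucrose, against 16.7 and 15.7 CPM with water.

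Fat-synthesis genes lay on both sides, and their replicates spread widely. Fasn, fatty acid synthase, held 315 and 225 CPM with sucrose, against 227 and 188 CPM with water (log2 0.38, SE 0.26), and Acly, which supplies acetyl-CoA, 134 and 94.6 CPM with sucrose, against 80.6 and 79.4 CPM with water. Scd1, the stearoyl-CoA desaturase, held 11900 and 4190 CPM with sucrose, against 13000 and 4890 CPM with water, so replicates of 1 drink differed far more than the drinks. Srebf1 held 37 and 49.8 CPM with sucrose, against 64.2 and 60.8 CPM with water, and Thrsp, a lipogenic regulator, 427 and 275 CPM with sucrose, against 509 and 516 CPM with water. Elovl6, which lengthens palmitate, overlapped at 131 and 75.7 CPM with sucrose, against 80.5 and 162 CPM with water. Acaca, acetyl-CoA carboxylase, was 17 and 34.3 CPM with sucrose, against 21.7 and 0.0879 CPM with water, and under 1 CPM in the other 8 livers. The fatty acid elongase Elovl3 held 10.2 and 10.4 CPM with sucrose, against 34 and 94.9 CPM with water, and Elovl2, of the polyunsaturated branch, 381 and 387 CPM with sucrose, against 289 and 216 CPM with water. Of 22 listed genes, 7 were above and 6 below in both sucrose livers, beside 20.2% and 23.1% of all genes. The median log2 was 0.28, with 0.10 on leaving out the first db/db sucrose liver and 0.47 on leaving out the first db/db water liver, and single pairs of libraries gave -0.03 to 0.18.

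Several genes of fat storage had lower values with sucrose. Plin2, the coat protein of lipid droplets whose level follows their number, held 740 and 919 CPM with sucrose, against 1110 and 1400 CPM with water (log2 -0.60, SE 0.29, edgeR adjusted p 1). Cidea, which enlarges droplets, held 111 and 70.8 CPM with sucrose, against 200 and 188 CPM with water, and G0s2, the inhibitor of the lipase ATGL, 16.6 and 104 CPM with sucrose, against 433 and 369 CPM with water. Fitm2, needed to form droplets, held 61.8 and 53.9 CPM with sucrose, against 79.6 and 77.5 CPM with water. Of 28 genes of droplets and triglyceride assembly, 10 were below and 3 above in both sucrose livers, beside 23.1% and 20.2% of all genes. The median log2 was -0.22, and between -0.33 and -0.13 when 1 library was left out. Cidec overlapped at 248 and 203 CPM with sucrose, against 287 and 239 CPM with water, as did Gpam and Dgat2. Pparg, which drives fat storage in obese livers, held 31.4 and 25.8 CPM with sucrose, against 23.8 and 17.4 CPM with water. For uptake, Lpl, the lipoprotein lipase, held 35.5 and 45.1 CPM with sucrose, against 22.1 and 22.2 CPM with water, and Cd36, the fatty acid translocase, 304 and 318 CPM with sucrose, against 320 and 446 CPM with water. Lipoprotein genes had a median log2 of -0.15 over 21 genes, with Mttp, which loads lipid onto apolipoprotein B, at -0.14 and Apoa4 apart at 11400 and 13600 CPM with sucrose, against 8100 and 3940 CPM with water.

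Ppara and several genes it is known to drive had values on opposite sides. Ppara held 254 and 132 CPM with sucrose, against 61.1 and 46.1 CPM with water (log2 1.85, SE 0.49, edgeR adjusted p 1). Cyp4a10, an omega-hydroxylase and a standard PPARα target, held 656 and 657 CPM with sucrose, against 1090 and 1840 CPM with water (log2 -1.16, SE 0.28, edgeR adjusted p 1). Cyp4a14 held 1460 and 1810 CPM with sucrose, against 2320 and 3410 CPM with water, and Cyp4a31 8.99 and 11.8 CPM with sucrose, against 21.3 and 25.5 CPM with water. In all 3 Cyp4a genes the sucrose livers lay below both water livers. Cpt1a, the gate for mitochondrial fatty acid entry, overlapped at 790 and 464 CPM with sucrose, against 514 and 475 CPM with water. Over 38 genes of fatty acid oxidation and ketogenesis, 22 were below and 3 above in both sucrose livers, beside 23.1% and 20.2% of all genes, with a median log2 of -0.24. At an unadjusted p under 0.05, 5 were lower and 2 higher, beside 2.07% and 2.21% of all genes. Fgf21, a PPARα-driven hormone, held 13.2 and 16.5 CPM with sucrose, against 11.5 and 10.1 CPM with water.

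The respiratory chain was an even group. All 54 tested genes of oxidative phosphorylation had a log2 below 0, with a median of -0.31. Both sucrose livers lay below both water livers for 53, with Cox5a the exception, beside 23.1% of all genes. Ndufb3, a subunit of complex I, held 57.7 and 54.4 CPM with sucrose, against 77.7 and 88.0 CPM with water (log2 -0.56, SE 0.16, edgeR adjusted p 1). Ndufb9 held 240 and 219 CPM with sucrose, against 295 and 308 CPM with water, and Ndufv2 138 and 136 CPM with sucrose, against 161 and 172 CPM with water. By complex the medians were close, at -0.31 for 26 genes of complex I, -0.25 for 4 of complex II, -0.27 for 7 of complex III, -0.31 for 10 of complex IV, -0.26 for 6 of ATP synthase and -0.26 for cytochrome c. At an unadjusted p under 0.05 there were 16 lower genes and 0 higher, against 2.07% of all genes lower, and edgeR called 0 of the 54 (DESeq2 called 0). Transcripts of the mitochondrial genome, a list added after seeing values, had 22 of 34 below and a median of -0.27, and cytosolic ribosomal proteins, also added, 74 of 83 below and a median of -0.18.

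These genes are short, and the drinks differed by transcript length throughout. Over 8193 genes with at least 5 CPM and a coding transcript in the annotation, Spearman's rho between length and the log2 fold change was 0.29, and between 0.22 and 0.27 for the 4 pairs of a sucrose and a water liver. Within a drink it was 0 between the sucrose livers and -0.09 between the water livers, and for sucrose against water in db/+ livers it was -0.13. In the shortest quartile, up to 1898 bases, 53.7% of genes had both sucrose livers below and 7.22% above, with a median log2 of -0.19. In the longest quartile, from 4494 bases, 16.3% were below and 26.4% above, with a median of 0.06. The oxidative phosphorylation genes had a median length of 992 bases, against 3008 for all 8193, and 45 of 54 fell in the shortest quartile. The 45 had a median log2 of -0.31 and the 9 longer ones -0.26, all 9 below. The part of length in these differences was not tested. Nor was it tested for the other lists and the Cyp2c genes, whose lengths are not given here. With library totals in place of TMM factors the median log2 of all genes moves by 0.15, and the medians become -0.15 for oxidative phosphorylation, -0.11 for mitochondrial transcripts and -0.03 for ribosomal proteins, against 0.14 for all genes.

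**Figure D3:**
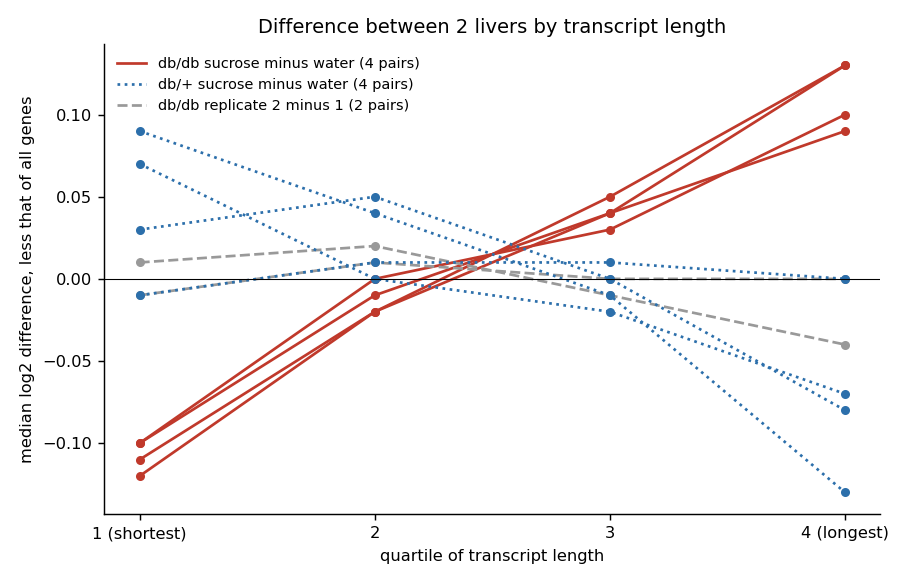
Median log2 difference between 2 livers, less the median of all 8193 genes, by quartile of transcript length, with 1 line per pair of libraries. The 4 db/db sucrose minus water pairs run from -0.12 to -0.10 in the shortest quartile and from 0.09 to 0.13 in the longest, while the 2 pairs of db/db replicates stay within 0.04 of 0 and the 4 db/+ pairs run between 0.09 and -0.13.

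Genes of glucose output and amino acid breakdown had a median log2 of -0.21 over 27 genes. Both sucrose livers lay below both water livers for 13 and above for 2, beside 23.1% and 20.2% of all genes. Pck1, the gluconeogenic carboxykinase, overlapped at 1990 and 2340 CPM with sucrose, against 2890 and 1870 CPM with water. G6pc, glucose-6-phosphatase, held 202 and 113 CPM with sucrose, against 216 and 254 CPM with water, and Slc37a4, the transporter that feeds it, 75.2 and 67.2 CPM with sucrose, against 117 and 152 CPM with water. The aminotransferase Gpt held 102 and 103 CPM with sucrose, against 150 and 183 CPM with water, and the tryptophan dioxygenase Tdo2 1510 and 1290 CPM with sucrose, against 1970 and 2100 CPM with water. Igfbp1 and Irs2, both under insulin control, overlapped.

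Macrophage and lymphocyte markers were above in both sucrose livers more often than the 20.2% of all genes. Of 34 macrophage and Kupffer cell genes, 23 were above and 1 below, and the median log2 was 0.68. Cd5l, a secreted protein of tissue macrophages, held 71.3 and 67.4 CPM with sucrose, against 31.4 and 21.4 CPM with water (log2 1.39, SE 0.43, edgeR adjusted p 1). Lyz2, the macrophage lysozyme, held 67.3 and 47.2 CPM with sucrose, against 27 and 32.1 CPM with water, and Trem2, of lipid-associated macrophages, 2.95 and 4.45 CPM with sucrose, against 1.79 and 2.05 CPM with water. Gpnmb, of the same cells, held 6.96 and 12.6 CPM with sucrose, against 4.83 and 5.11 CPM with water, and Cd68 12.9 and 13.9 CPM with sucrose, against 9.03 and 7.88 CPM with water. Clec4f, found on resident Kupffer cells, overlapped at 69.7 and 47.8 CPM with sucrose, against 52.0 and 46.9 CPM with water. Adgre1, the F4/80 antigen, held 4.09 and 9.63 CPM with sucrose and was listed at 0 and 0.0126 CPM with water. In a bulk tissue, more cells of a type and more RNA per cell cannot be told apart.

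Of 24 lymphocyte genes, 15 were above in both sucrose livers and 0 below, beside 20.2% and 23.1% of all genes. Their levels were low, with a fitted median of 0.76. Taken instead as differences of log2(CPM + 1) between single libraries, the 4 sucrose minus water pairs gave lymphocyte medians of 0.18 to 0.26, against 0.52 to 0.73 for the macrophage genes. Ptprc, the pan-leukocyte CD45, held 10.7 and 7.96 CPM with sucrose, against 4.91 and 2.89 CPM with water. Chemokines and cytokines had 11 of 28 above and a median of 0.40, with Cxcl16 at 10.3 and 10.7 CPM with sucrose, against 5.09 and 4.64 CPM with water, while Ccl2 overlapped and Tnf was under 1 CPM in all 4. Interferon and antigen presentation genes had 17 of 40 above and a median of 0.34, with Ifit2 at 4.48 and 6.49 CPM with sucrose, against 2.91 and 2.46 CPM with water. That median was 0.12 without db/db sucrose replicate 2. Endothelial genes had 13 of 24 above and a median of 0.34, with the scavenger receptor Stab1 at 32.4 and 41.1 CPM with sucrose, against 21.7 and 16.3 CPM with water, and the median was 0.15 without db/db sucrose replicate 2. Matrix and stellate genes had 13 of 42 above, 0 below and a median of 0.19, which was 0.01 without db/db sucrose replicate 2. Col3a1 held 17 and 21.1 CPM with sucrose, against 10.3 and 15.9 CPM with water, Acta2 1.35 and 1.43 CPM with sucrose, against 0.937 and 0.603 CPM with water, and Col1a1 and Timp1 overlapped. The 5 macrophage markers used to check cell content summed, without TMM factors, to 183 and 169 CPM with sucrose, against 111 and 101 CPM with water, and the 4 endothelial markers to 56.6 and 108 CPM with sucrose, against 49.4 and 44.8 CPM with water.

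The plasma proteins of the acute phase lay the other way, with a median of -0.38. Of 33 genes, 15 were below and 3 above in both sucrose livers, beside 23.1% and 20.2% of all genes. All 3 fibrinogen chains were among the lower ones. Fga held 1640 and 1930 CPM with sucrose, against 2480 and 3280 CPM with water, Fgb 2170 and 2270 CPM with sucrose, against 2910 and 3650 CPM with water, and Fgg 1510 and 1630 CPM with sucrose, against 2100 and 2680 CPM with water. Orm1, orosomucoid, held 547 and 511 CPM with sucrose, against 779 and 922 CPM with water, and complement factor B (Cfb) 440 and 299 CPM with sucrose, against 669 and 625 CPM with water. Saa1 and Lcn2, strongly induced in acute inflammation, were higher in db/db water replicate 2 than in the other water liver and both sucrose livers, with Saa1 at 42.1 and 37.7 CPM with sucrose, against 40.4 and 129 CPM with water, and Lcn2 at 75.8 and 107 CPM with sucrose, against 98.2 and 218 CPM with water. Without that library the median of the list was -0.08. All 18 glucocorticoid-induced genes and metallothioneins were at a log2 below 0, with a median of -0.57. Only 4 of them had both sucrose livers below both water livers, beside 23.1% of all genes. The median of the 18 was -0.12 without db/db water replicate 2. That library held 147 CPM of Dusp1, against 26.1 CPM in the other water liver and 28.4 and 26.3 CPM in the sucrose livers. Its erythroid markers summed to 2290 CPM, against 918 CPM in the other water liver and 1310 and 867 CPM in the sucrose livers. The part of these markers in the values of the 2 lists was not tested.

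**Figure D4:**
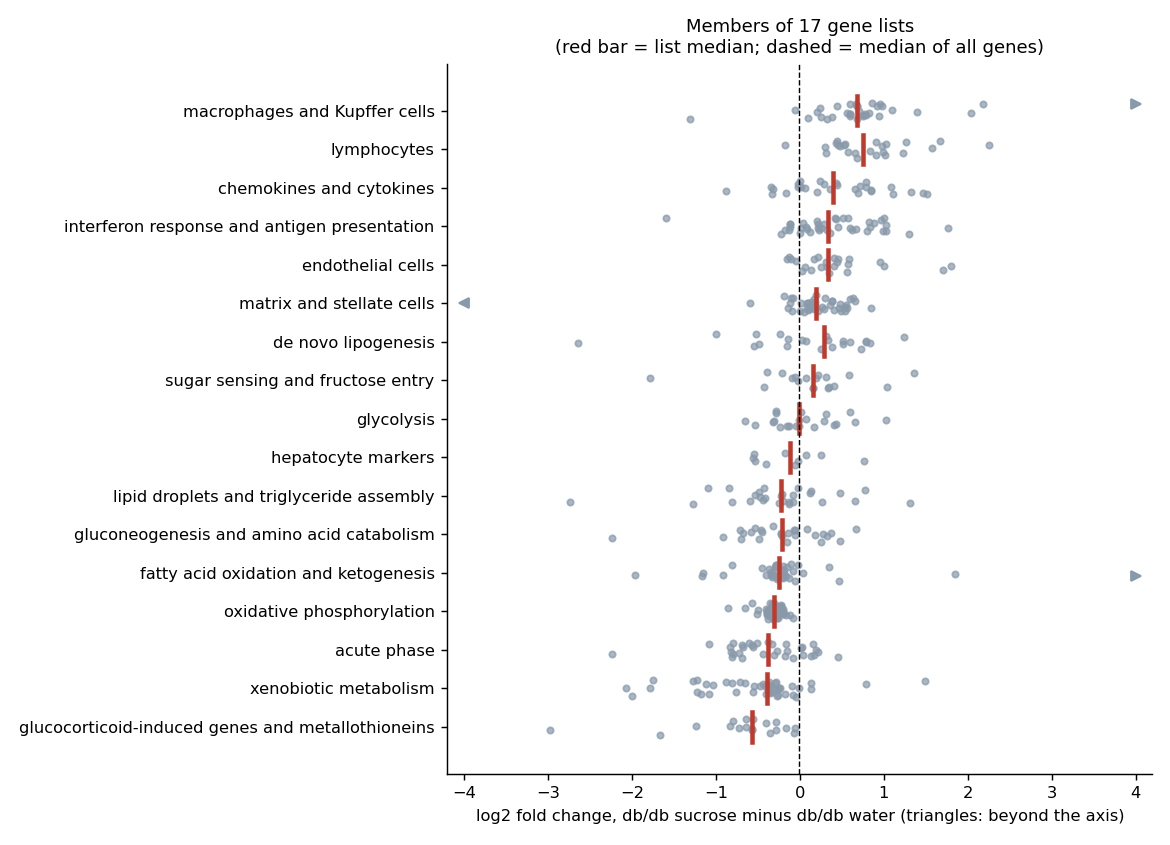
Log2 fold change (db/db sucrose minus water) of the tested members of 17 gene lists, with 1 point per gene, a red bar at the list median and a dashed line at the median of all genes. The macrophage median is at 0.68 and the lymphocyte median at 0.76 (0.18 to 0.26 between single libraries), oxidative phosphorylation genes cluster tightly around -0.31, and xenobiotic genes spread widely around -0.39.

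Lepr, the leptin receptor gene that carries the db allele, whose reads pool all receptor forms, held 1.56 and 2.5 CPM with sucrose, against 1.34 and 0.690 CPM with water, while db/+ livers held 14.0 and 18.9 CPM with sucrose, against 2.43 and 6.65 CPM with water. Cyp7a1, the rate-limiting enzyme of bile acid synthesis, overlapped at 1.47 and 0.585 CPM with sucrose, against 0.742 and 0.603 CPM with water, and Cyp8b1 held 475 and 277 CPM with sucrose, against 249 and 243 CPM with water. Cholesterol synthesis genes had a median of 0.27 that was -0.28 without db/db sucrose replicate 1. Among secreted factors Igf1, Igfbp2, Angptl8 and Gdf15 overlapped. Of the 54 panel genes, 18 were above and 10 below in both sucrose livers, beside 20.2% and 23.1% of all genes. The remaining medians were -0.04 for lipid uptake, -0.13 for bile acids, 0.08 for insulin signalling, -0.21 for growth hormone and IGF, -0.16 for male-biased and -0.47 for female-biased genes, -0.11 for complement and coagulation, 0.16 for neutrophils, -0.60 for adipocyte and pancreas markers (6 tested), 0.12 for cell cycle and -0.03 for the unfolded protein response. Heat shock and immediate early genes were at 0.02, clock genes at 0.07, hepatokines at -0.26, oxidative stress genes at -0.11, cell death genes at 0.29, hepatocyte markers at -0.12 and erythroid genes at -0.66. Cholangiocyte genes had a median of 0.00. Leaving out each library in turn gave medians of -0.13 to 0.02 for lipid uptake, -0.19 to -0.03 for bile acids, 0.07 to 0.21 for insulin signalling, -0.40 to 0.02 for growth hormone and IGF, -0.40 to 0.02 for male-biased genes, -0.66 to -0.23 for female-biased genes, -0.27 to 0.00 for complement and coagulation, 0.08 to 0.40 for neutrophils, -1.63 to 0.15 for adipocyte and pancreas markers and -0.43 to 0.53 for cell cycle. It gave -0.13 to 0.09 for the unfolded protein response, -0.26 to 0.14 for heat shock genes, 0.05 to 0.10 for clock genes, -0.34 to -0.03 for hepatokines, -0.20 to 0.01 for oxidative stress genes, 0.19 to 0.39 for cell death genes, -0.36 to 0.03 for hepatocyte markers, -1.27 to 0.25 for erythroid genes and -0.39 to 0.52 for cholangiocyte genes.

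Whether the response depends on genotype was tested as the difference between sucrose minus water in db/db and in db/+ livers. In db/+ livers 3 genes were called (0.0155%), and 5.98% passed an unadjusted p of 0.05, 3.12% higher and 2.87% lower with sucrose. The difference between genotypes was called for 3 genes (0.0155%), with 4.97% at an unadjusted p under 0.05. Gm8893 was among these, with a difference of 5.48 (SE 0.33, edgeR adjusted p 0.00354), as its log2 fold change was 5.23 in db/db and -0.25 in db/+ livers. The other two differ through the db/+ side. Cdc42se2 held 10.2 and 15.3 CPM with sucrose in db/db livers, against 12.8 and 14.0 CPM with water, but 0.0173 and 0 CPM with sucrose in db/+ livers, against 8.63 and 6.58 CPM with water. Kbtbd2 held 10.9 and 10.5 CPM with sucrose in db/db livers, against 8.06 and 8.17 CPM with water, but 11.2 and 12.6 CPM with sucrose in db/+ livers, against 0 and 0 CPM with water. The count of such genes was 32 when the first db/+ water liver was dropped, 16 on dropping the second db/+ sucrose liver, 8 on dropping the second db/+ water or the first db/db water liver, 5 on dropping either db/+ brazzein liver, and 1 on dropping the second db/db water liver. Gm8893 was called in all of these.

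The lists with the most genes at a negative difference between genotypes were the oxidative ones. Oxidative phosphorylation had a median of -0.31 in db/db and 0.08 in db/+ livers, and 15 of 54 genes had a negative difference between genotypes at an unadjusted p under 0.05, beside 2.73% of all genes. Of these 54 genes 45 are in the shortest quartile of transcript length, which as a whole had a median of -0.19 in db/db and 0.09 in db/+ livers, and the part of length was not tested here either. Fatty acid oxidation had a median of -0.24 in db/db and 0.30 in db/+ livers, with 15 of 38 genes negative in the same sense. None of these genes passed over all genes. Wider gaps of the other sign were seen for lymphocyte genes, at 0.76 in db/db and -0.35 in db/+ livers, and for cholesterol synthesis, at 0.27 in db/db and -0.54 in db/+ livers. At an unadjusted edgeR p under 0.05, 6 of 26 cholesterol genes had a positive difference and 1 a negative one. For the 24 lymphocyte genes these counts were 1 and 0, beside 2.23% and 2.73% of all genes. The db/db cholesterol median was -0.28 without db/db sucrose replicate 1. Between single db/db libraries the lymphocyte medians were 0.18 to 0.26. Cyp4a14 was 7510 and 6370 CPM with sucrose in db/+ livers, against 5160 and 6160 CPM with water, the reverse of its order in db/db livers. Lipid droplet genes had medians of -0.22 in db/db and 0.27 in db/+ livers, where Cidec in db/+ livers held 87.0 and 82.4 CPM with sucrose, against 18.5 and 28.4 CPM with water. Macrophage genes had positive medians in both, 0.68 in db/db and 0.89 in db/+ livers. In db/+ livers 9 of 34 had both sucrose livers above both water livers and 0 below, beside 17.6% and 18.3% of all genes. The summed macrophage markers there were 58.5 and 177 CPM with sucrose, against 52.0 and 65.6 CPM with water, high in 1 library. Medians were negative in both for xenobiotic genes, -0.39 in db/db and -0.29 in db/+ livers. For Cyp2c50 the db/+ livers held 307 and 307 CPM with sucrose, against 670 and 665 CPM with water, and for Cyp2c29 313 and 297 CPM with sucrose, against 579 and 443 CPM with water. Mlxipl differed between genotypes by 1.62 (SE 0.35) with an edgeR adjusted p of 0.805.

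**Figure D5:**
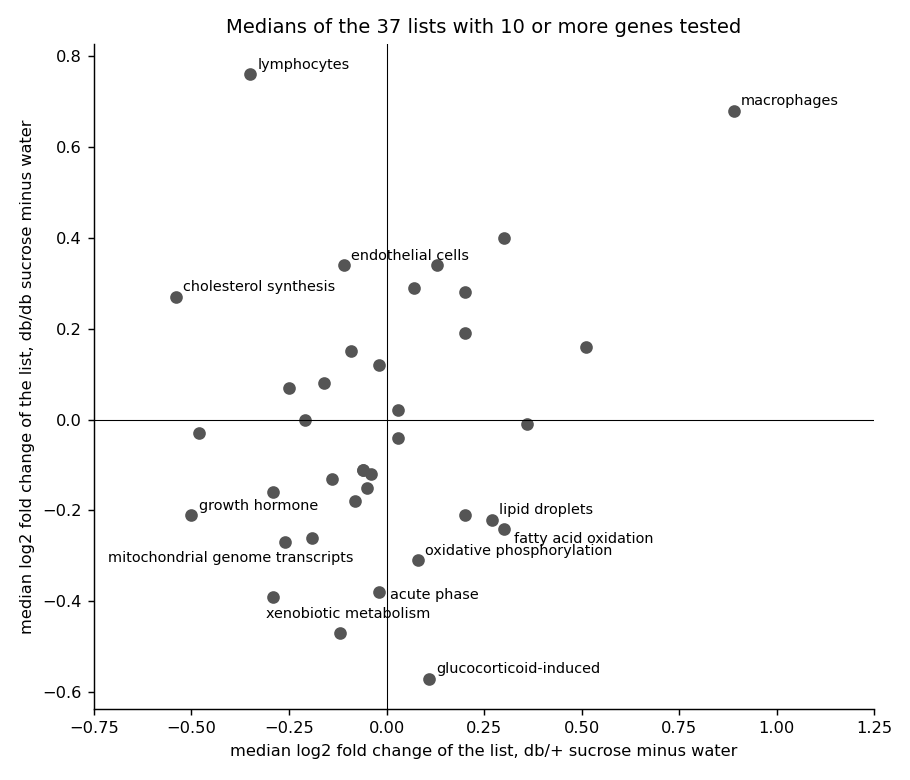
Median log2 fold change of sucrose against water for 37 gene lists, in db/db livers (vertical axis) and db/+ livers (horizontal axis), with 1 point per list. Macrophage genes are positive in both genotypes, xenobiotic genes negative in both, and oxidative and lipid droplet genes lie below 0 in db/db but above 0 in db/+ livers.

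Brazzein against water in db/db livers, which uses the same water libraries, called 23 genes (0.119%), with 8.57% at an unadjusted p under 0.05, 3.75% higher and 4.82% lower. All of the 23 except Gm26712, Tmem63a, Wdr25 and Wdr33 are listed near 0 in some liver, beside 1329 of all 19352 genes tested. Gm8893 was one of the 23, with a log2 of 4.95 and an edgeR adjusted p of 0.000679. List medians with brazzein against water were 0.41 for oxidative phosphorylation, 0.42 for ribosomal proteins, 0.02 for fatty acid oxidation, -0.28 for xenobiotic genes and 0.18 for macrophage genes. For Ndufb9 the brazzein livers held 379 and 431 CPM, above both other drinks. In brain, sucrose against water in db/db mice called 0 of 23653 genes by edgeR (0%), with 1704 genes (7.2%) at an unadjusted p under 0.05, and Gm8893 was below the filter there. Zfp629 held 44.4 and 44.8 CPM with sucrose in brain, against 42.4 and 39.7 CPM with water, and Eif2b5 65.9 and 67.7 CPM with sucrose, against 66.1 and 61.8 CPM with water.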

How the data were processed

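Male mouse brain and liver were profiled by poly(A) RNA sequencing with a kit named without a directional label, per the labels' protocols, so antisense genes were not told apart. Bcl2fastq and build GRCm39 come from the submitters' processing notes. No aligner or counting tool is named there (not given in the sources used here). The deposited per-sample files hold expected counts, whole numbers not divided by gene length, that follow the coverage signal deposited in the series table. In 92.3% of 4991 genes with at least 1000 counts, count over coverage varied by under 5% across the 4 livers. The authors' FPKM values were used for the Serpina1 genes only. No counting interval was given, since the counts are estimates.

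Counts were fitted in R 4.3.3 with edgeR 4.0.16 (TMM, filterByExpr, quasi-likelihood) over 12 livers in 6 groups of 2, with Benjamini-Hochberg adjustment and a threshold of 0.05. The script was tested on simulated counts. A gene was listed near 0 when its median over livers reached 100 counts but 1 library fell below 0.1 of that median (1329 of 19352 genes). Alternatives were DESeq2 1.42.0, RLE factors, other filters and samples, a replicate-number block, and each library left out in turn. Library totals without factors were added after seeing the data. Named are called genes, a panel of 54, up to 12 genes per direction by smallest p, and up to 4 members of each list. The 37 lists, the genes in them and the panel were chosen with earlier results of these data known. Cyp2c genes, Huwe1, the Serpina1 genes and 2 lists were added after seeing values. Some panel genes and the sequences are not reported here.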

Additional observations from a re-analysis of the deposited data

Results flagged for a closer look

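Of the results listed here, 3 stood out because the response to sucrose differed between db/db and db/+ livers by a test of that difference (edgeR, difference of log2 fold changes). Gm8893 differed by 5.48 (adjusted p 0.00354), on the db/db side. Cdc42se2 differed by 9.54 (adjusted p 0.0276), with the db/+ sucrose livers listed at or near 0. Kbtbd2 differed by -12.29 (adjusted p 0.0397), with both db/+ water livers and both db/db brazzein livers listed at 0. All 3 genes are listed near 0 in some livers, and groups of 2 libraries are too small for a test of single outlying samples.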

How the results depend on the processing

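The number of genes called for sucrose against water in db/db livers was 1, and became 2 with no filter on low counts, 0 with only the 4 db/db sucrose and water livers (edgeR, 1497 at an unadjusted p under 0.05), 0 with only the 6 db/db livers (edgeR, 1159 unadjusted) and 76 with DESeq2. Leaving out 1 library at a time gave 1 to 12. Without the genes listed near 0 the single call was Huwe1 (adjusted p 0.0385). For the difference between genotypes the 3 calls became 5 with no filter, 0 without genes listed near 0 (edgeR, 879 unadjusted), 7 with only the 8 sucrose and water livers, 105 with DESeq2 and between 1 and 32 without 1 library. The causes were not tested.

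No pairing of the samples by replicate number was seen, as deviations of same-numbered db/db sucrose and water livers correlated at 0.0433. With 2 libraries a group this cannot exclude a pairing. With the replicate number as a block, edgeR called 1 gene, Gm8893 (log2 5.22, adjusted p 0.0046), and 1 for the difference between genotypes.

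With library totals in place of TMM factors the sign turned for Cdc42se2 (0.09), Tkfc (0.06), Dgat2 (0.07), Mttp (0.02), Pck1 (0.01), Timp1 (0.10) and Alb (0.13). Alb was also at 0.00 with a mean of at least 1 CPM or without genes listed near 0, and at 0.01 with only the 4 or 6 db/db livers. With the replicate block the sign turned for Igfbp1 (0.13) and Timp1 (0.04).

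Leaving out 1 library at a time turned the sign of these log2 fold changes, given with their lowest and highest value: Cdc42se2 (-0.39 to 0.18), Tkfc (-0.19 to 0.06), Elovl6 (-0.68 to 0.38), Scd1 (-1.10 to 0.73), Gpam (-1.81 to 1.11), Dgat2 (-0.29 to 0.11), Cpt1a (-0.09 to 0.69), Pck1 (-0.39 to 0.22), Igfbp1 (-1.13 to 0.97), Irs2 (-0.11 to 0.20), Cyp7a1 (-0.20 to 1.14), Igf1 (-0.68 to 0.07), Igfbp2 (-0.79 to 0.36), Gdf15 (-0.03 to 0.25), Saa1 (-1.68 to 0.01), Clec4f (-0.05 to 0.51), Ccl2 (-0.59 to 0.83), Col1a1 (-0.24 to 0.52), Timp1 (-0.51 to 0.62), Dusp1 (-2.41 to 0.09), Alb (-0.31 to 0.37), Hnf4a (-0.08 to 0.21) and Serpina1e (-0.76 to 0.20). None of them was called. Precision is limited by 2 libraries a group.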
